A study of Mus musculus with 6 samples.

Results

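Heparin-binding EGF-like growth factor, encoded by Hbegf, is one of several ligands of the EGF receptor family. The genes described here are Hbegf, the other ligand genes Areg, Ereg, Tgfa, Egf and Btc, and the receptor genes Egfr, Erbb2 and Erbb3. Hbegf was picked because it was higher with GW4064 in these same arrays, so its values are given as a description with no test, and the other 8 genes were chosen by family. Of the 9 genes, 8 were matched to a probe set that carries their symbol alone, out of 22180 genes so matched. These were 5 ligands and 3 receptors, and Areg was not matched in the platform annotation used here.

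Wild-type male adult C57Bl/6 mice supplied primary hepatocytes, which were kept without serum and exposed for 4 h to the solvent DMSO or to GW4064 at 2 µM, a compound that activates the bile acid sensor FXR. Each group held 3 arrays, numbered 1 to 3, and the series describes 3 separate hepatocyte preparations. No label says whether a preparation came from 1 mouse or from pooled mice, nor that a number marks a preparation, so p-values measure only the spread between these samples. With 3 arrays in a group, precision is limited throughout. All levels are RMA log2 intensities per probe set, and every difference is GW4064 minus DMSO on that log2 scale. A level belongs to its own probe set and was not compared between genes. In cultures of this kind a change in RNA per cell cannot be told apart from a change in the number of cells that express a gene.

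EGF family ligands are made as membrane-anchored precursors, and proteases of the ADAM family cut them to release the soluble factor. Hbegf, Areg, Ereg, Tgfa, Egf and Btc products all bind the EGF receptor, and some also bind ErbB4, whereas neuregulins bind ErbB3 and ErbB4. ErbB2 has no known ligand and acts as a partner of the other receptors. ErbB3 has little kinase activity of its own and couples its partners to PI3K. In liver the EGF receptor and its ligands are best known for their part in hepatocyte proliferation during regeneration.

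Known target genes of FXR were higher in all 3 GW4064 arrays. Abcb11, the bile salt export pump gene, lay at 4.88 ± 0.18 in DMSO and 7.97 ± 0.17 with GW4064 (means ± SD, n = 3 arrays each), and Nr0b2, which encodes the repressor SHP, at 4.51 ± 0.06 and 6.89 ± 0.22. The cells carried hepatocyte transcripts, with mean log2 levels over 9 measured hepatocyte markers of 10.99 to 11.03 in DMSO and 10.96 to 11.07 with GW4064. Of these markers 3 were higher and 6 lower (44.6% and 55.4% of all genes), with a median difference of -0.06. Hnf4a, a transcription factor of hepatocyte identity and 1 of these markers, was higher in all 3 pairs by 0.51, 0.65 and 0.49 (difference 0.55, SE 0.12, limma adjusted p = 0.393), and its part in the values below was not tested. Over all 22180 genes the median difference was -0.016, 11 genes (0.0496%) passed a limma adjusted p of 0.05, all of them higher, and 18 (0.0812%) passed with the replicate number as a block.

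Hbegf (probe set 17353699) was picked for its rise in this contrast, so its place among the matched ligand genes is not a result. The ligand gene Nrg4 lay close in size, at -0.70. For Hbegf the DMSO arrays read 5.36, 5.47 and 5.44 for replicates 1, 2 and 3, and the GW4064 arrays read 6.43, 6.09 and 6.01. The DMSO values lay within 0.10 of each other, every GW4064 value lay above them, and the gap between the groups was 0.54. GW4064 replicate 1 stood highest, and the 3 GW4064 arrays spread over 0.42, more than the DMSO arrays. The means were 5.42 ± 0.05 and 6.17 ± 0.22 (SD, n = 3 arrays each), a difference of 0.75, or 1.68-fold. By same-numbered pairs the differences were 1.07, 0.62 and 0.57 for pairs 1, 2 and 3. This was the 29th highest difference of the 22180 genes. All GW4064 arrays above all DMSO arrays was seen for 4.58% of all genes, which is printed for scale only because Hbegf was chosen on this contrast.

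**Figure D1:**
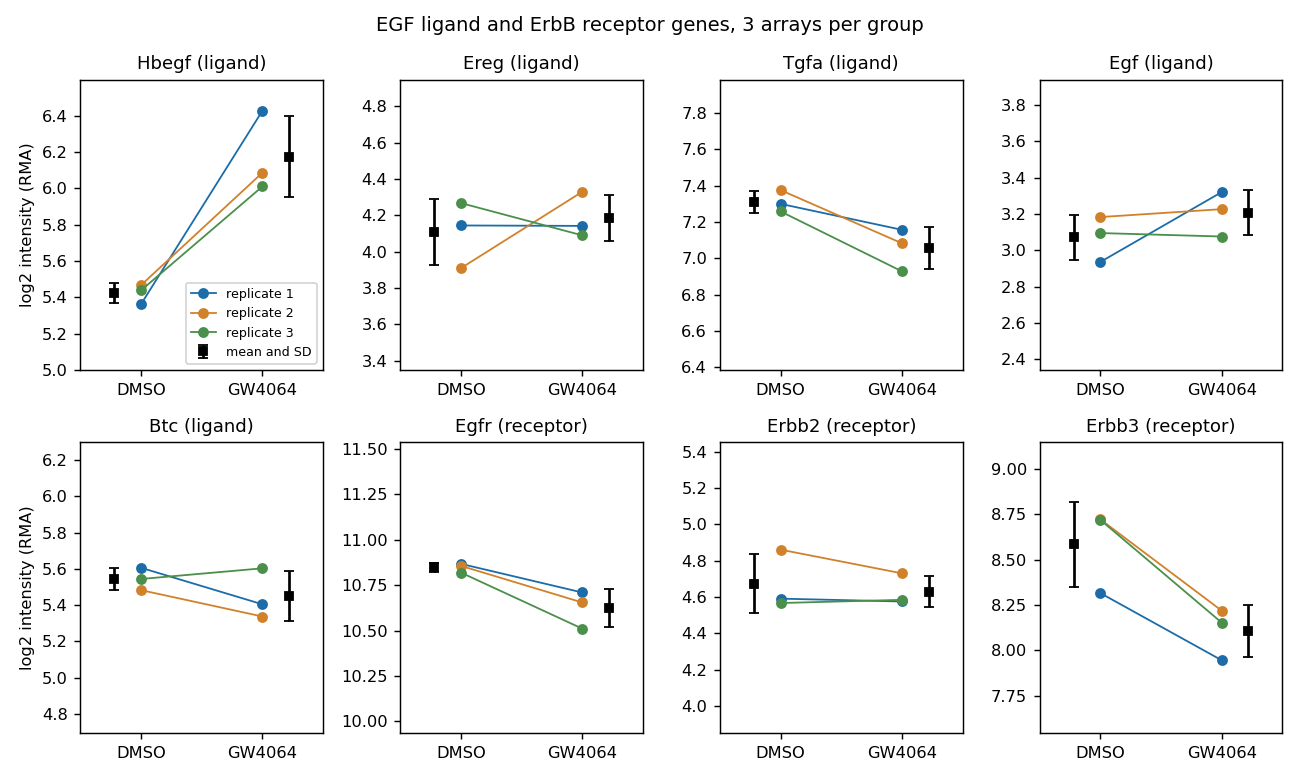
Log2 intensity of 8 EGF ligand and ErbB receptor genes on each array, with DMSO on the left and GW4064 on the right of each panel, 1 line per same-numbered pair, and black squares with bars for the mean and SD of 3 arrays. Each panel spans the same log2 range around its own midpoint and starts above 0. The Hbegf lines climb from about 5.42 to 6.17 on average, each Tgfa, Egfr and Erbb3 line slopes downwards, and the remaining panels show crossing or flat lines.

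None of the other 7 genes passed the limma test over all genes, with or without the block. At an unadjusted p under 0.05, 3 of these 7 were lower and 0 were higher, against 3.06% lower and 2.60% higher of all genes, and with the block the number was 3, against 9.13% of all genes in either direction. Those 3 were Tgfa, Egfr and Erbb3, and they were also the ones whose GW4064 arrays all lay below their DMSO arrays, which 6.19% of all genes did. They were lower in all 3 same-numbered pairs, as were 18.6% of all genes.

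Tgfa (probe set 17460385) encodes transforming growth factor alpha, a ligand that hepatocytes themselves make. Its level was 7.30, 7.38 and 7.26 in DMSO and 7.16, 7.08 and 6.93 with GW4064. All GW4064 values lay below all DMSO values, by a gap of 0.10 between the nearest arrays. The difference was -0.26 (SE 0.10, 95% interval -0.48 to -0.03), with an adjusted p of 0.858 in limma. The pair differences of -0.14, -0.29 and -0.33 were all negative, so within each pair Tgfa was lower and Hbegf higher. Both genes' arrays kept the groups apart, in opposite directions.

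The ligand genes Btc, Ereg and Egf had overlapping groups. Btc (probe set 17449585), the betacellulin gene, read 5.61, 5.48 and 5.54 in DMSO and 5.40, 5.34 and 5.60 with GW4064. GW4064 replicate 3 lay within the DMSO range while the other GW4064 arrays lay below it. The Btc difference was -0.10 (SE 0.10, 95% interval -0.33 to 0.14, limma adjusted p = 0.998), and ran from -0.17 without GW4064 replicate 3 to -0.04 without GW4064 replicate 2.

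Ereg (probe set 17439021), the epiregulin gene, read 4.14, 3.91 and 4.27 in DMSO and 4.14, 4.33 and 4.09 with GW4064. Its pair differences of -0.002, 0.42 and -0.18 did not share a sign, and replicate 2 alone was higher with GW4064. The mean difference was 0.08 (SE 0.12, 95% interval -0.19 to 0.35, limma adjusted p = 0.998). A second probe set of the gene, 17548464, read 4.26, 3.79 and 4.22 in DMSO and 4.02, 4.04 and 3.85 with GW4064, a difference of -0.12, so the 2 probe sets disagreed in sign. The sign of the first also turned without DMSO replicate 2 (-0.019).

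Egf (probe set 17410275), the gene of epidermal growth factor itself, read 2.94, 3.18 and 3.10 in DMSO and 3.32, 3.23 and 3.08 with GW4064. The groups overlapped, and most of the difference of 0.14 (SE 0.11, 95% interval -0.11 to 0.38, limma adjusted p = 0.985) came from pair 1, at 0.38 against 0.04 and -0.02. Without pair 1 the Egf difference was 0.012. The Hbegf difference of 0.75 was chosen for its size, so the intervals of these 3 ligand genes were not set against it. No test of the difference between Hbegf and another ligand was made.

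Among the receptors Erbb3 differed most. Erbb3 (probe set 17246231), which encodes the neuregulin receptor that recruits PI3K, read 8.32, 8.72 and 8.72 in DMSO and 7.95, 8.22 and 8.15 with GW4064. Replicate 1 was the lowest array of each group, and the highest GW4064 array lay 0.10 below the lowest DMSO array. The means were 8.59 ± 0.23 and 8.11 ± 0.14 (SD, n = 3 arrays each). The difference was -0.48 (SE 0.14, 95% interval -0.79 to -0.17), or 0.717-fold, with a limma adjusted p of 0.660, and 0.204 with the replicate block. The pair differences were -0.37, -0.50 and -0.57.

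Egfr (probe set 17247389), which encodes the receptor shared by Hbegf and the 5 other ligands listed first, read 10.87, 10.86 and 10.82 in DMSO and 10.71, 10.66 and 10.51 with GW4064. The DMSO arrays lay within 0.05 of each other and all GW4064 arrays lay below them. The difference of -0.22 (SE 0.09, 95% interval -0.43 to -0.01) corresponds to 0.857-fold and did not pass limma over all genes (adjusted p = 0.863). Its pair differences were -0.16, -0.20 and -0.31.

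Erbb2 (probe set 17255999), the ligandless partner receptor, read 4.59, 4.86 and 4.57 in DMSO and 4.57, 4.73 and 4.58 with GW4064. Replicate 2 was highest in both groups and the groups overlapped. The difference was -0.04 (SE 0.11, 95% interval -0.29 to 0.21, limma adjusted p = 0.998), and its sign turned without DMSO replicate 2 (0.051). The 3 receptor genes were also set against each other within arrays. The Erbb3 difference minus that of Erbb2 was -0.44 (-0.35, -0.37 and -0.58 in pairs 1, 2 and 3). Erbb3 minus Egfr gave -0.26 (-0.21, -0.30 and -0.26) and Egfr minus Erbb2 gave -0.18 (-0.14, -0.07 and -0.33). Each of these 3 contrasts had the same sign in every pair, but they are not independent, as each follows from the other 2. An exact permutation test over arrays was run without use of the pair numbers. In it p was 0.1 for Erbb3 against Erbb2, 0.3 for Erbb3 against Egfr and 0.2 for Egfr against Erbb2. The Benjamini-Hochberg adjusted p of this test was 0.3 for each of the 3 contrasts. With 3 against 3 arrays the test cannot reach an exact p below 0.1.

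The family has 6 further genes, the ligand genes Epgn, Nrg1, Nrg2, Nrg3 and Nrg4 and the receptor gene Erbb4. None passed the limma test over all genes, with or without the block. At an unadjusted p under 0.05 there were 2 higher and 1 lower, in both fits. Of all genes, 2.60% were higher and 3.06% lower without the block, and 9.13% passed in either direction with it. The same 3 genes had groups that did not overlap, as 10.8% of all genes did. Nrg4, a neuregulin that signals through ErbB4, read 6.26, 6.46 and 6.99 in DMSO and 5.85, 5.69 and 6.07 with GW4064. All its GW4064 arrays lay below its DMSO arrays, and the difference was -0.70 (SE 0.18, 95% interval -1.11 to -0.29, limma adjusted p = 0.629, 0.177 with the block). Epgn, the epigen gene, went from 2.98 ± 0.10 to 3.29 ± 0.04 (SD, n = 3 arrays each). The Epgn difference was 0.32 (SE 0.09, limma adjusted p = 0.717), at a low level, percentile 29.8 of all genes. Nrg2 had 0.26 (SE 0.10, limma adjusted p = 0.858), and its groups did not overlap either. Nrg1 had 0.05 (SE 0.11), Nrg3 -0.10 (SE 0.11) and Erbb4 -0.20 (SE 0.11), each with overlapping groups. The Erbb4 means, 2.72 in DMSO and 2.52 with GW4064, lay below those of Epgn.

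**Figure D2:**
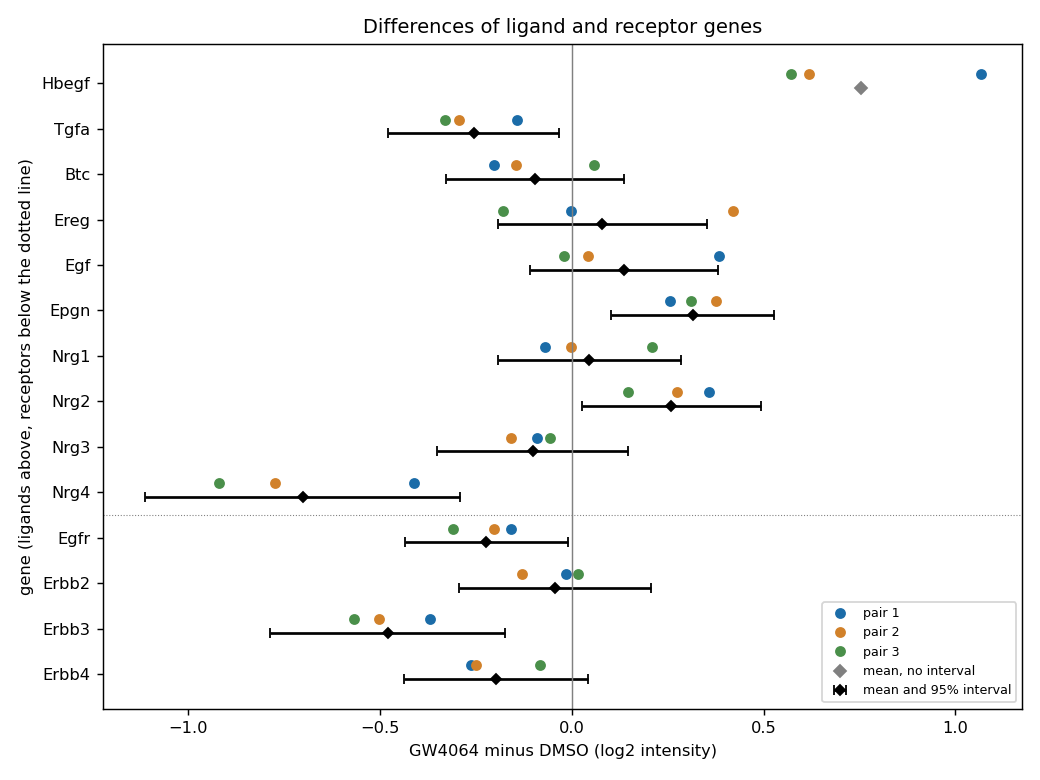
Difference in log2 intensity, GW4064 minus DMSO, for 10 ligand genes and 4 receptor genes, with 1 coloured point per same-numbered pair and a black diamond with bar for the mean and 95% limma interval. Hbegf has a grey diamond at 0.75 and no interval because it was chosen on this contrast. Nrg4 at -0.70 and Erbb3 at -0.48 are the lowest means, and every pair of both lies below 0.

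Ligand release was followed in 16 genes for ADAM proteases, their regulators and cell-surface partners of HB-EGF. None passed the limma test, with 6 higher and 10 lower where 44.6% and 55.4% of all genes were. The median difference was -0.017 beside -0.016 for all genes. At an unadjusted p under 0.05, 1 was lower (3.06% of all genes). With the block there were 2, both lower (9.13% of all genes in either direction). Adam17, the protease known to shed HB-EGF and transforming growth factor alpha, had 0.03 (SE 0.10). The same-numbered pairs gave it 0.07, 0.11 and -0.08. Sdc4, a heparan sulfate proteoglycan of the cell surface, had the smallest p of the list, at -0.40 (SE 0.10, limma adjusted p = 0.569). Its arrays read 10.15, 10.12 and 10.34 in DMSO and 9.80, 9.74 and 9.87 with GW4064, with no overlap. Cd9, a tetraspanin that associates with membrane-anchored HB-EGF, had -0.12 (SE 0.10) and the metalloprotease inhibitor gene Timp3 -0.23 (SE 0.19).

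Inhibitors and feedback regulators of the EGF receptor also gave no call in limma, with 9 of 22 higher and 13 lower (44.6% and 55.4% of all genes) and a median of -0.049. At an unadjusted p under 0.05 there was 1 higher gene (2.60% of all genes), and with the block 1 higher and 2 lower, the latter Dusp6 and Cblb (9.13% of all genes in either direction). The higher gene was Spry1, a Sprouty inhibitor of RAS-ERK signalling. It went from 4.33 ± 0.04 to 4.54 ± 0.03 (SD, n = 3 arrays each), a difference of 0.21 (SE 0.09). Dusp6, the ERK phosphatase gene that ERK activity induces, had -0.28 (SE 0.13), with GW4064 arrays of 7.55, 7.62 and 7.22 below DMSO arrays of 7.64, 7.93 and 7.65. The ubiquitin ligase gene Cblb had -0.22 (SE 0.11). Errfi1, whose product MIG6 binds and inhibits the EGF receptor, had 0.07 (SE 0.09) and overlapping groups.

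Signal transducers downstream of the receptors were followed as adaptors with the RAS-ERK cascade and as the PI3K-AKT and STAT arms. In the first, 15 of 20 genes were measured, 4 higher and 11 lower, with a median of -0.059. In the second, 12 of 13 were measured, 1 higher and 11 lower, with a median of -0.12, where 55.4% of all genes were lower and the median was -0.016. Neither list had a gene past the limma threshold, and at an unadjusted p under 0.05 the first had 1 lower gene and the second 0, beside 3.06% of all genes lower. With the block each had 1, Gab1 and Pik3r1, beside 9.13% of all genes in either direction. The gene of the first was Gab1, the docking protein that links the EGF receptor to PI3K and SHP2, at -0.32 (SE 0.11, 95% interval -0.57 to -0.08, limma adjusted p = 0.783), with GW4064 arrays of 6.83, 6.82 and 6.66 below DMSO arrays of 7.02, 7.26 and 7.01. Araf, a RAF kinase gene, had -0.11 (SE 0.09) and Gab2 -0.09 (SE 0.10). In the PI3K list Pik3r1, the regulatory subunit gene, had -0.32 (SE 0.16), Pik3cb, a catalytic subunit gene, -0.18 (SE 0.09), and Stat3 -0.17 (SE 0.10).

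Genes that respond to ERK activity lay close to all genes as a list, with 7 of 18 measured genes higher and 11 lower (44.6% and 55.4% of all genes). Their median was -0.017. None passed the limma test, and 1 was lower at an unadjusted p under 0.05 (3.06% of all genes). With the block there were 2, both lower (9.13% of all genes in either direction). The 1 without the block was Egr1, an immediate early transcription factor, at 6.07, 5.97 and 6.19 in DMSO and 5.75, 5.49 and 5.90 with GW4064, a difference of -0.37 (SE 0.12, limma adjusted p = 0.789). Ier3, a survival gene of the immediate early class, had -0.39 (SE 0.21), and Ccnd1, the cyclin D1 gene of cell cycle entry, had 0.24 (SE 0.17), with overlapping groups in both. The same-numbered pairs pointed both ways within the list, with Egr1 and Ier3 lower in all 3 pairs and Ccnd1, Myc, Atf3 and Phlda1 higher in all 3. Of all genes, 18.6% were lower and 12.6% higher in all 3 pairs.

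**Figure D3:**
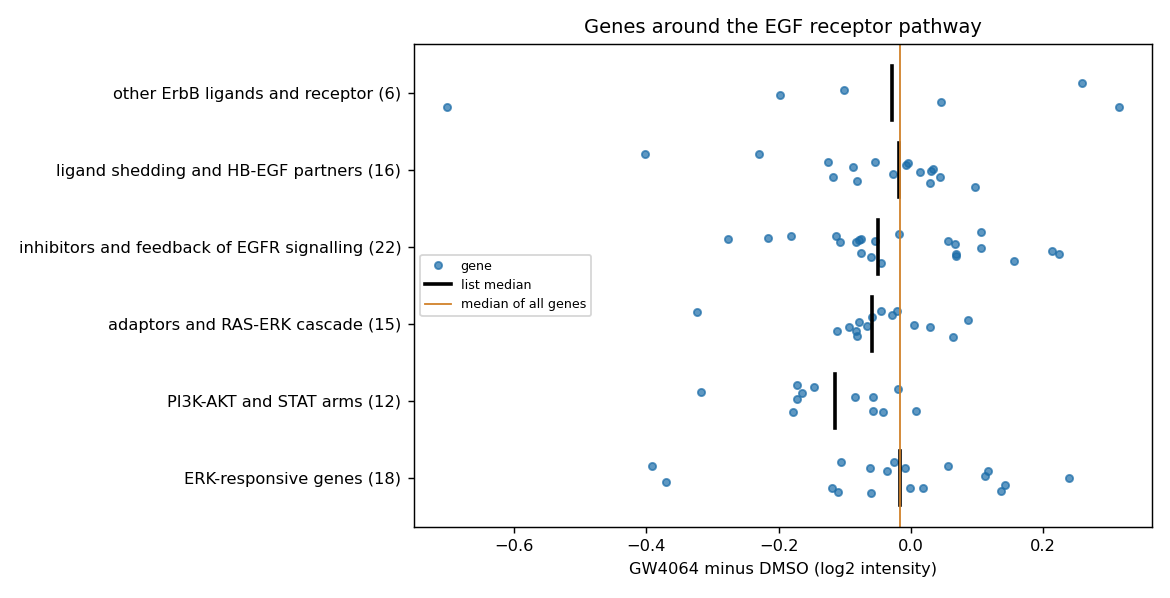
Difference in log2 intensity, GW4064 minus DMSO, for each measured gene of 6 lists around the EGF receptor pathway, with the number of genes in brackets, a black bar at each list's median and an orange line at the median of all genes, -0.016. The list medians run from -0.12 for the PI3K-AKT and STAT arms to -0.017, and no gene shown passed limma over all genes.

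The genes most like Hbegf over the 6 arrays were found among 655 genes at or above the median level with an SD of at least 0.3, with no test. The 5 highest Pearson correlations were those of B4galt5 (0.982), a galactosyltransferase gene, Wipf3 (0.971), whose product binds WASP proteins of the actin skeleton, Gcnt2 (0.967), a glycosyltransferase gene of blood group I branching, the mitochondrial carrier gene Slc25a47 (0.966) and the glycerate kinase gene Glyctk (0.961). All 5 were higher in every GW4064 array than in every DMSO array, and 6 arrays in 2 separate groups give high values to any gene that follows the treatment. With each group's mean removed the correlations were 0.853, 0.708, 0.817, 0.624 and 0.605. GW4064 replicate 1 was the highest array for all 5, as it was for Hbegf. The 5 genes were picked by their correlation over these same arrays, which includes the spread within groups. Neither the remaining correlations nor the shared highest array are therefore separate evidence of likeness. With 1 array left out, only 1 to 3 of these 5 genes stayed among the 5 most alike.

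**Figure D4:**
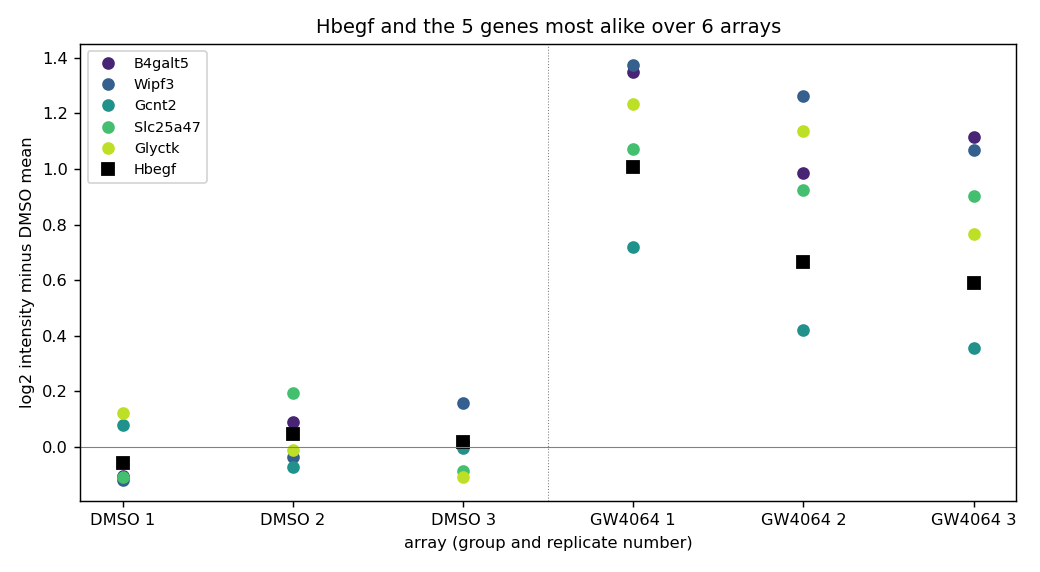
Log2 intensity minus the gene's DMSO mean on each of 6 arrays for Hbegf (black squares) and the 5 genes with the highest Pearson correlation to it (coloured points). Every GW4064 point lies above every DMSO point, and GW4064 replicate 1 is the highest array for Hbegf and for each of the 5.

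Hbegf and other ligand genes are also expressed by liver cells other than hepatocytes, so markers of those cells were read beside them. The mean log2 level of 8 macrophage markers ran from 4.05 to 4.21 in DMSO and from 3.93 to 4.18 with GW4064, with 3 higher and 5 lower. For 8 endothelial markers it ran from 4.31 to 4.75 and from 4.32 to 4.68, with 3 higher and 5 lower. For 8 stellate cell markers the ranges were 3.97 to 4.09 and 3.96 to 4.14 with 6 higher, and for 6 measured lymphocyte markers 3.13 to 3.26 and 3.20 to 3.22 with 3 higher. The 5 measured cholangiocyte markers ran from 4.37 to 4.49 and from 4.39 to 4.61, with 4 higher. These list means do not stand for each marker. Cd68, a macrophage marker, read 8.53 to 10.02 in DMSO and 8.46 to 9.93 with GW4064. The cholangiocyte marker Sox9 read 7.09 to 7.58 and 7.48 to 8.08. In each of these 5 lists the mean levels of the 2 groups overlapped. Of single markers, Col3a1 and Cd3g had all GW4064 arrays above all DMSO arrays, as 4.58% of all genes did. Of all genes, 44.6% were higher and 55.4% lower. No marker passed limma over all genes. Sox9, a cholangiocyte marker that some hepatocytes also express, was higher in all 3 pairs by 0.39, 0.47 and 0.50, and its part in the Hbegf difference was not tested.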

How the data were processed

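The authors deposited log2 intensities per probe set of 1-colour Affymetrix MoGene-2_0-st arrays. RMA and Partek are the tools given per the submitters' processing notes. The log base is not stated, and the values, 0.936 to 13.07, have the range of log2 RMA output. The genome build is not given in the sources used here. Of 41345 probe sets, 23521 carry 1 symbol in the platform annotation, 1814 several and 16010 none. The probe set with the highest mean was kept per gene, with no filter on level, which left 22180 genes. All 8 matched family genes have a RefSeq entry with the same symbol.

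Titles gave groups and numbers. Differences were fitted over all genes with limma 3.58.1 (lmFit and eBayes, R 4.3.3) without a block, adjusted by Benjamini-Hochberg, and the fit was also run on simulated data. The simulation held no replicate shifts, and recovery was required only for its largest differences. Recovery of smaller differences is not reported here. Same-numbered arrays deviated together from their group means (r = 0.26, 0.34 and 0.45, each above 0.1), so the number was also fitted as a block. Other alternatives were quantile normalization, median centring, filters at the 25th percentile and the median of level, other uses of a gene's probe sets, a trended prior, and leaving out arrays or pairs. The members and lists were chosen with earlier results of these data known. Named are all members, up to 3 genes per pathway list with the smallest p, and the 5 genes most correlated with Hbegf among genes at or above the median level with an SD of at least 0.3, without predicted or small-RNA genes. Adam17, Errfi1, Sox9, Hnf4a, Myc, Atf3, Phlda1, Nrg1, Nrg3 and Erbb4 were named after their values were seen. Nardilysin is listed under an old and a new symbol, of which 1 was matched. Listed symbols without a matched probe set were not analysed here.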

Additional observations from a re-analysis of the deposited data

How the results depend on the processing

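The number of genes called over all genes was 18 with the replicate block and 2 to 5 with arrays or pairs left out, against 11, and 9 to 14 under the other alternatives. The block changed no call of a ligand, receptor or pathway list gene, and neither did any other alternative run: none of the 7 tested family genes and none of the genes of the 6 pathway lists passed under any of them. The Hbegf difference stayed between 0.60 and 0.84 over its 16 alternatives, lowest without pair 1. Tgfa stayed between -0.31 and -0.19, Egfr between -0.26 and -0.17, and Erbb3 between -0.61 and -0.40, each negative in 16 of 16. For Hbegf, Tgfa, Egfr and Erbb3 the block, the level filters, the trended prior and the mean of probe sets leave the difference unchanged. Their groups did not overlap, so leaving out arrays or pairs could not turn the sign. Only quantile normalization and median centring could have done so. The Ereg sign turned with the mean of its probe sets (-0.018) and with its second probe set (-0.12), and its values with arrays left out ran from -0.090 to 0.21. Erbb2 ran from -0.10 to 0.051 with arrays left out, positive without DMSO replicate 2 (0.051) and without pair 2 (0.00092). Btc ran from -0.17 to -0.04 and Egf from 0.012 to 0.21 with arrays left out, without a change of sign. Egf and Ereg fell below the filter at the median level.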

Other observations

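In the RefSeq table of GRCm38.p6, Epgn, Ereg, Areg and Btc follow each other on chromosome 5 with no other protein-coding gene between them in that table. The 3 measured neighbours did not share a direction, at 0.32 for Epgn, 0.08 for Ereg and -0.10 for Btc (GW4064 minus DMSO, log2), and none passed limma over all genes.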
